A study of Mus musculus and synthetic construct with 3 samples.

Results

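The cytosolic ribosomal protein genes encode the proteins that, with the ribosomal RNAs, build the large and the small subunit of the ribosome. Members were chosen by symbol alone, as genes whose symbol starts with Rpl or Rps followed by a digit, together with Rpsa, Rplp0, Rplp1 and Rplp2, without pseudogene symbols holding "-ps" and without the Rps6k kinases. The rule found 86 of 32285 genes in the matrix, 52 with large subunit symbols and 34 with small subunit symbols, and all 86 had at least 1 exonic UMI in the aortic sections. A UMI, a unique molecular identifier, stands for 1 captured RNA molecule. Rps19bp1, a nucleolar binding protein of Rps19, and Rpl7l1, a relative of Rpl7, were taken by name only.

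Seq-Scope was used to map RNA in 10 µm sections of suprarenal abdominal aorta on 1 array of barcodes with known positions. All mice were male, lacked Apoe (Apoe -/-) in every tissue, ate a normal diet and were 16 weeks old per the labels, although the study's methods give a younger age for the same model. Minipumps delivered angiotensin II (AngII) or saline for 4 weeks to 5 mice per arm. The AAA group held the 3 AngII mice in which an abdominal aortic aneurysm had developed, and the control group 3 saline mice. A control and an AAA aorta were embedded together, and 10 sections per group were laid on the array. Expression was mapped to ask which genes are active in which layer of the aortic wall, with and without an aneurysm.

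The deposited matrix pooled both conditions, so sections were assigned to mice by their position along the second lane. Their positions were set against outlines drawn by the study. Exonic UMIs in genes not starting with mt or Gm numbered 116663 to 169752 per control mouse and 440323 to 955232 per AAA mouse. Contractile markers (among them Acta2, Tagln and Myh11) made up 1.93% ± 0.309 of UMIs in control and 1.16% ± 0.122 in AAA mice (mean ± SD over 3 mice each, here and below), and collagen markers 0.949% ± 0.0513 and 1.37% ± 0.222. Macrophage markers made up 0.286% ± 0.0253 and 0.533% ± 0.0876. Mitochondrially encoded transcripts made up 10.5% ± 0.394 and 6.86% ± 0.451 of all exonic UMIs, with no overlap between groups. Liver markers (1.93% ± 0.281 and 1.81% ± 0.0709) and intestine markers (0.912% ± 0.111 and 0.850% ± 0.0248) were also found within the sections, with overlapping groups. Fewer cells of a type and less RNA per cell cannot be told apart in these sums.

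Ribosomal protein mRNAs are abundant, short and made in nearly all cells, since a ribosome needs its proteins in fixed proportion. Most carry a terminal oligopyrimidine tract, a C followed by further pyrimidines at the very start of the transcript, through which mTORC1 signalling and Larp1 control their translation. Such control changes how much protein is made from an mRNA, and UMI counts measure the mRNA only. In the windows from 10 bases before to 20 bases after each annotated start (RefSeq, GRCm38.p6, the assembly also called mm10), at least 1 of 3 strings of letters was found on the sense strand in 19 of 78 member windows (24.4%, 66 genes matched) and in 7.85% of 32851 windows of all genes. The strings were CTTTC, next to it the string CTTTT, and as the last one CCTTT, which can overlap the others. On the other strand the shares were 5.13% and 7.65%. The windows below are of some members named in the results, with matched letters in capitals. They were picked after the values were seen and hold the strings more often than member windows as a whole. Rpl32 and Rps20, called higher in a test further below, had no window among the 78.
Rps27 (chr3:90213629-90213658, minus strand): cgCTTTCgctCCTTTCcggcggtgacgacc
Rps27rt (chr9:114982720-114982749, minus strand): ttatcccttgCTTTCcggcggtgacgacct
Rps6 (chr4:86857348-86857377, minus strand): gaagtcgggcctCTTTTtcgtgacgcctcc
Rplp2 (chr7:141447641-141447670, plus strand): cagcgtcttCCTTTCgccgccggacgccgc
Rpl13a (chr7:45128726-45128755, minus strand): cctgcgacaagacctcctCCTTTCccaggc
Rps13 (chr7:116334171-116334200, minus strand): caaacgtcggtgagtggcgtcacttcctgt
Rps9 (chr7:3704031-3704060, plus strand): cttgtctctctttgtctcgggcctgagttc
The windows of Rps13 and Rps9 held none of these letters. Each window starts upstream of an annotated transcript start and ends downstream of it, in the first exon or beyond.

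Ribosomal protein genes took a slightly larger share of the UMIs within section bounds in AAA than in control mice. The share of exonic UMIs was 7.40%, 7.33% and 7.81% for the 3 control mice and 7.90%, 8.26% and 7.98% for the 3 AAA mice. Every AAA mouse lay above every control mouse, by 0.0968 percentage points between the closest pair. The means were 7.51% ± 0.257 and 8.05% ± 0.188, a difference of 0.533 percentage points. Both subunits took part: large subunit genes went from 3.81% ± 0.161 to 4.06% ± 0.0966 and small subunit genes from 3.71% ± 0.0988 to 3.98% ± 0.0918, with no overlap between groups in either. As a sum over members the share was given no test. The mice with more contractile and mitochondrial and fewer collagen and macrophage UMIs were the control mice, and the part of these differences in the share was not tested.

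**Figure D1:**
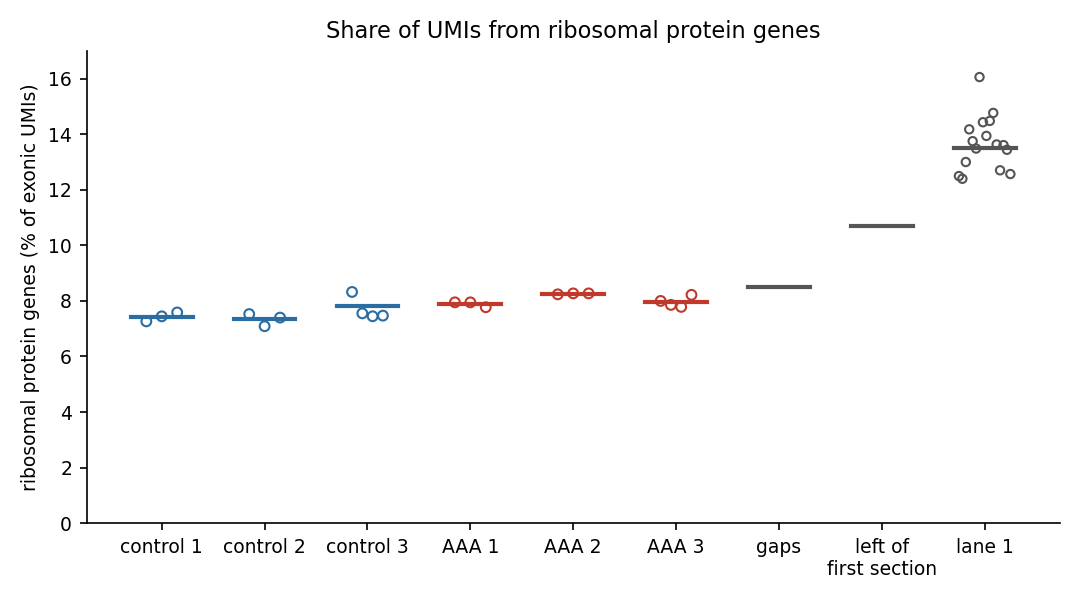
Percent of exonic UMIs (genes not starting with mt or Gm) from the 86 ribosomal protein genes, with bars for each mouse or region, open points for single sections of the 6 mice and, in lane 1, for 16 blocks along the lane. Control mice sit between 7.33% and 7.81%, AAA mice between 7.90% and 8.26%, and lane 1 at 13.5%.

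Among sections the share ran from 7.09% through a median of 7.46% to 8.32% in the 10 control sections and from 7.77% through 7.97% to 8.27% in the 10 AAA sections. The highest control value was that of 1 section of control mouse 3, whose other 3 sections lay between 7.44% and 7.55%. That section adjoined an AAA section, and the inner outline edge of each of these 2 sections had been left out when positions were fitted. Without the control section the share of control mouse 3 was 7.49%, and the difference between groups was 0.640 percentage points.

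Gene by gene, the differences in all section barcodes were small, and no member passed the test. The 10 members with the most UMIs were Rps29, Rplp1, Rpl13a, Rps24, Rpl6, Rps13, Rps20, Rps21, Rps9 and Rps23, which together gave 27.6% of the 197204 ribosomal protein UMIs. In counts per 1000000 exonic UMIs outside mt and Gm genes (CPM), taken per kilobase of transcript, Rps29 was the highest at 8336 CPM per kb, ahead of Rplp1 at 5839 and Rpl13a at 5534. They were also the first by UMIs, in the same order. As a UMI stands for 1 captured molecule, dividing by length can distort levels. Rps20, with 4476 UMIs, fell to 485 CPM per kb at a median annotated length of 3706 bases. Rps29, a small subunit protein, stood at 2796, 3077 and 3075 CPM in control and at 3299, 3323 and 3317 in AAA mice. Rps13, a small subunit protein, stood at 1569, 1577 and 1679 in control and at 1973, 1960 and 1862 in AAA mice. In both genes the lowest AAA mouse lay above the highest control mouse.

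Of the 6151 genes tested, 81 were members. With edgeR's quasi-likelihood test and Benjamini-Hochberg adjustment over all tested genes, 0 members were called higher and 0 lower in AAA, where 1.15% of all tested genes were called higher and 1.32% lower. At an unadjusted p under 0.05, 7 members were higher and 0 lower, where 691 of the 6151 genes tested passed in either direction. DESeq2 called 0 members, where it called 0.455% of all genes higher and 0.78% lower. The median log2 fold change of the members was 0.07 (quartiles 0.02 and 0.15), against -0.01 over all genes tested. A positive value was found in 61 of 81 members and in 48.9% of all genes tested. In 15 members (18.5%) every AAA mouse lay above every control mouse, which was so in 8.76% of all genes tested, and in 2 members (2.47%), Rpl36 and Rps21, every AAA mouse lay below, against 8.7%.

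The values nearest to a call were those of Rps13, Rps9 and Rps24, all of the small subunit. Rps13 had a log2 fold change of 0.26 ± 0.11 (SE, adjusted p = 0.277), Rps9 of 0.25 ± 0.11 (adjusted p = 0.317) and Rps24 of 0.24 ± 0.11 (adjusted p = 0.340). Rps9 stood at 1569, 1431 and 1455 CPM in control and at 1849, 1753 and 1725 in AAA mice. Rps13 alone passed with UMIs counted over whole genes (log2 fold change 0.39, adjusted p = 0.0433) and without the low-count filter (0.41, adjusted p = 0.0472).

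The 3 proteins of the stalk, the flexible arm of the large subunit that recruits elongation factors, were not alike in their values. Rplp1 stood at 2389, 2760 and 2745 CPM in control and at 2999, 3198 and 2792 in AAA mice. Rplp0, which anchors the stalk, stood at 407, 463 and 477 in control and at 530, 606 and 508 in AAA mice. In both the groups did not overlap, with log2 fold changes of 0.18 ± 0.10 (adjusted p = 0.517) and 0.28 ± 0.14 (adjusted p = 0.450). Rplp2 stood at 581, 643 and 477 in control and at 534, 627 and 505 in AAA mice, and its groups overlapped (log2 fold change -0.03 ± 0.14, adjusted p = 0.975). Rps27a, made as a fusion of ubiquitin and a small subunit protein, stood at 1220, 1131 and 1473 in control and at 1399, 1549 and 1351 in AAA mice, with overlapping groups (0.15 ± 0.11, adjusted p = 0.682).

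The difference between groups was widest where the tissue gave the most RNA. Hexagons with 12 µm sides that held 75 or more genes by exonic UMIs, a minimum taken from the study, numbered 4909 in the sections, far fewer than the study counted. They gave ribosomal protein shares of 6.45%, 6.55% and 6.46% in control mice and 8.13%, 8.05% and 7.80% in AAA mice. The groups did not overlap and differed by 1.50 percentage points, with an SD of 0.0564 among control and 0.172 among AAA mice. Hexagons with 50 to 74 genes gave 7.18%, 6.90% and 6.92% in control and 7.53%, 7.92% and 7.65% in AAA mice. The remaining section barcodes gave 7.80%, 7.51% and 8.03% in control and 7.89%, 8.44% and 8.10% in AAA mice, with overlapping groups. They held 61.7% to 82.1% of the section UMIs in control and 45.4% to 67.2% in AAA mice. Section bounds were set along the lane only, so barcodes off the tissue can be among them. Dense hexagons minus remaining barcodes came to -1.35, -0.960 and -1.57 percentage points in control and to 0.241, -0.393 and -0.300 in AAA mice, so that the share was lower in dense tissue in every control mouse and the difference had both signs among AAA mice. Gaps between sections, where no tissue outline was drawn, had a share of 8.50%.

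**Figure D2:**
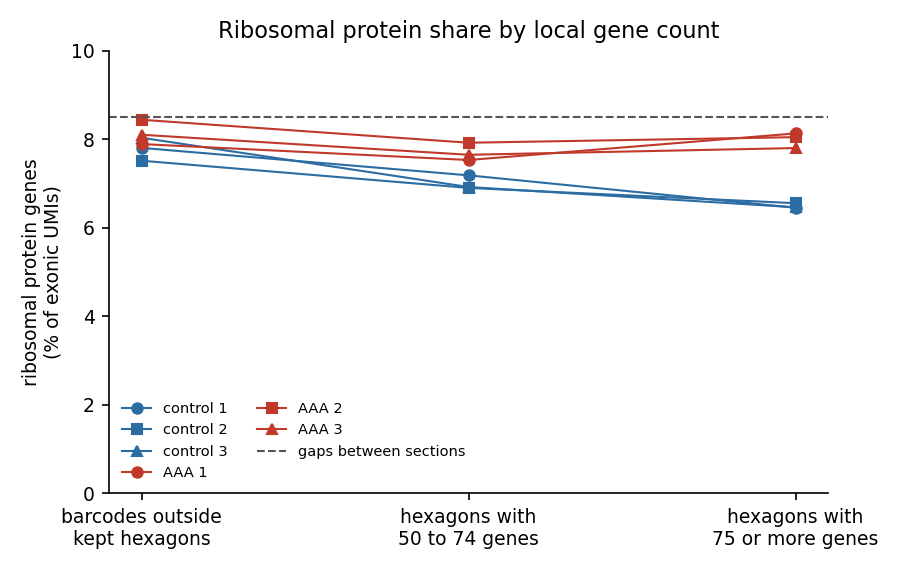
Percent of exonic UMIs from ribosomal protein genes in each mouse (1 line per mouse), split into section barcodes outside hexagons with at least 50 genes, hexagons with 50 to 74 genes and hexagons with 75 or more genes, with the gaps between sections at 8.50% as a dashed line. Control lines end between 6.45% and 6.55%, AAA lines between 7.80% and 8.13%.

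These dense hexagons were fewer in control (285, 108 and 95) than in AAA mice (2627, 914 and 880), and held 9718 to 34566 UMIs per control and 95991 to 334126 per AAA mouse. Contractile markers made up 2.34% to 3.30% of their UMIs in control and 0.796% to 1.30% in AAA mice, and collagen markers 0.710% to 0.815% and 1.33% to 1.81%. Leaving all class markers out of the denominator gave a difference of 1.52 percentage points. The part that the kind of tissue and the depth had in the rest was not tested.

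**Figure D3:**
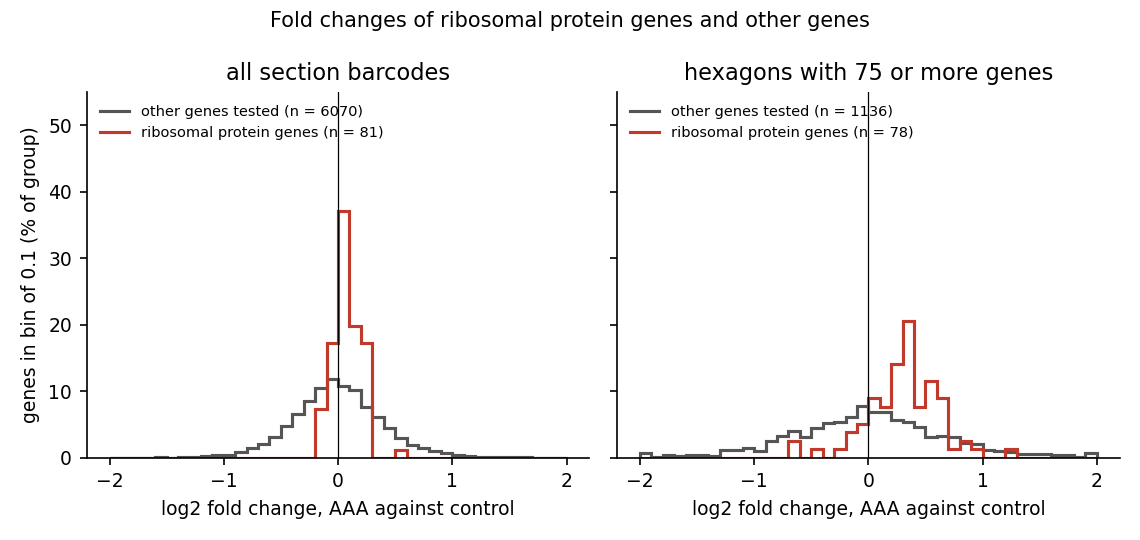
Distribution of log2 fold changes, AAA against control, in bins of 0.1, for ribosomal protein genes (red) and all other genes tested (grey), over all section barcodes (left) and in hexagons with 75 or more genes (right); values beyond 2 in either direction are drawn at the edges. The red distribution is centred at 0.07 on the left and at 0.33 on the right.

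In a test over the dense hexagons, Rpl32 and Rps20 were called higher in AAA. Rpl32, a large subunit protein, had 17, 8 and 4 UMIs in control and 414, 144 and 109 in AAA mice, or 491.8, 679 and 412 against 1239, 1292 and 1136 CPM. Its log2 fold change was 1.26 ± 0.26 (SE, edgeR adjusted p = 0.00775). Rps20, a small subunit protein, had 60 UMIs in the control and 957 in the AAA mice together, or 1244, 849 and 720 against 1724, 1901 and 1761 CPM. Its log2 fold change was 0.82 ± 0.23 (adjusted p = 0.0482). Neither gene's groups overlapped, and both rested on under 50 UMIs in each control mouse.

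Over all section barcodes the same genes differed by far less. Rpl32 stood at 975, 1071.5 and 1137 CPM in control and at 1238, 1299 and 1184 in AAA mice (log2 fold change 0.22 ± 0.11, adjusted p = 0.473). Rps20 stood at 1763, 1680 and 1803 in control and at 1773, 1887 and 1801 in AAA mice, with overlapping groups (0.05 ± 0.10, adjusted p = 0.925). In hexagons with 50 or more genes Rpl32 (0.55, adjusted p = 0.126) and Rps20 (0.47, adjusted p = 0.131) did not pass. Rps20 also lost its call with DESeq2 (adjusted p = 0.0519), without the section that stood apart (0.0748), and with the embedding pair as a block in edgeR (0.0663), whereas Rpl32 kept it in all 3 (adjusted p = 0.00523, 0.0113 and 0.0174). With the block 1 member rather than 2 was called, where 20 of 1214 genes were called higher. Leaving out any 1 mouse other than control mouse 1 also ended the call of Rps20 (edgeR adjusted p from 0.0513 to 0.126), and Rpl32 kept its call without each mouse in turn.

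Of the 78 members tested in dense hexagons, 2 were called higher and 0 lower, where 1.98% of 1214 genes were called higher and 3.46% lower. DESeq2 called 1, Rpl32, higher and 0 lower, against 1.57% and 2.88%. At an unadjusted p under 0.05 in edgeR, 15 members were higher and 0 lower, where 220 of the 1214 genes tested passed in either direction. The median of the members was 0.33 (quartiles 0.12 and 0.52), against 0.03 over all genes tested. A positive value was found in 67 of the 78 members and in 52.4% of all genes tested. In 21 members (26.9%) every AAA mouse lay above every control mouse, against 11.4% of all genes tested, and in 0 members did every AAA mouse lie below, against 11.1%. Rps21, a small subunit protein, was among these 21, although over all barcodes it had stood at 1950, 1783 and 1850 CPM in control and at 1720, 1751 and 1772 in AAA mice. With UMIs counted over whole genes, 21 of 79 members were called higher and 0 lower, against 1.6% and 0.416% of 10091 genes.

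Like regions were compared by hexagon class, set by which list of markers had the most UMIs in a hexagon. No ribosomal protein gene is a marker, and the markers were left out of the denominator. In contractile hexagons, those led by smooth muscle genes, the share was 6.71%, 7.30% and 6.31% in control and 7.11%, 7.55% and 7.29% in AAA mice. Here the groups overlapped, with means of 6.78% ± 0.499 and 7.32% ± 0.222. With a minimum of 5 marker UMIs for a class in place of 3, the order of the means turned round, to 6.65% ± 0.537 in control and 6.32% ± 0.792 in AAA mice, again with overlap, whereas at 2 or more the groups did not overlap (6.86% ± 0.356 and 7.52% ± 0.200). Hexagons of no class had 7.12%, 6.83% and 7.39% in control and 8.21%, 8.41% and 8.15% in AAA mice, without overlap.

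Collagen hexagons of AAA mice had shares of 9.08%, 8.75% and 9.01%. In each of the 3 AAA mice this was higher than in its contractile hexagons, by 1.20 to 1.97 percentage points (mean 1.63 ± 0.392, SD). This gap was 2.85 percentage points with a minimum of 5 marker UMIs and 0.714 with whole-gene UMIs, and was positive in all 3 mice in both. Mean whole-gene shares were lower in both classes (3.52% and 2.81%) than exonic ones (8.95% and 7.32%), so these gaps are not on 1 scale. Collagen hexagons held more UMIs, with a median per hexagon that was 17.5, 24 and 7.5 above that of contractile hexagons, and the part of depth was not tested. Of 80 members with at least 20 UMIs in both classes together, 36 (45.0%) were higher in collagen hexagons in all 3 mice and 2 (2.5%) lower. Of 1975 other genes that also had at least 20 UMIs, 18.2% were higher and 11.3% lower. These genes were not matched to the members by number of UMIs, which alters how often 3 mice share a direction. In CPM the widest gaps were those of Rps29 at 1111 and of Rps28, a small subunit protein, at 732.

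Macrophage hexagons of AAA mice had shares of 9.31%, 7.51% and 7.44% in 69, 40 and 33 hexagons. Control mice had 0 of 488 hexagons in this class. Counting error alone allows up to 0.615% of them if hexagons are taken as independent, which those of 1 mouse are not. Adipocyte hexagons of AAA mice had 8.78%, 8.08% and 7.67%. Hexagons led by MHC class II genes, which present antigen, had the highest mean of the classes with at least 2 mice, 10.8% and 9.52% in the AAA mice with at least 500 UMIs. In control mice these classes held too few UMIs for a mean, except for adipocyte and collagen hexagons of control mouse 1 at 6.56% (exact binomial 95% interval 6.01 to 7.14, counting error only) and 6.94% (5.61 to 8.47).

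**Figure D4:**
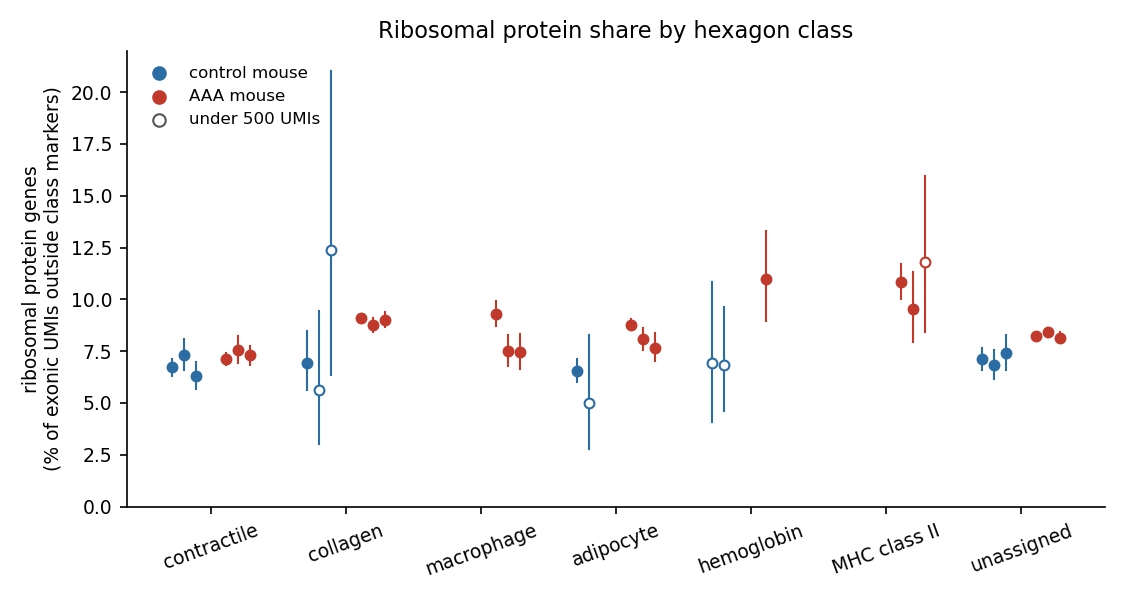
Percent of exonic UMIs outside class markers from ribosomal protein genes, per mouse and hexagon class, with exact binomial 95% intervals as lines and open points for fewer than 500 UMIs. In AAA mice, collagen hexagons lie between 8.75% and 9.08% and contractile hexagons between 7.11% and 7.55%.

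The test within contractile hexagons held few genes. Of 114 genes tested 29 were members, of which 0 were called higher and 0 lower, where 1.75% were called in either direction, 20 genes of all had an unadjusted p under 0.05, and 0 of these were members. DESeq2 called 0 genes in either direction. Of the 29 members 14 had a positive value, with a median of -0.01, and 51.8% of all genes tested had a positive value. Rps20 had a log2 fold change of 0.44 ± 0.35 (adjusted p = 0.672) and Rplp1 of 0.43 ± 0.27 (adjusted p = 0.489). Rpl32 was not among the genes tested.

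Lane 1 of the same flow cell, which the labels do not describe, had a far larger ribosomal protein share than the sections. It was 13.5% of 4077414 UMIs, with 12.4% to 16.1% (median 13.6%) in 16 blocks along the lane, against 7.92% of the pooled sections. Tissue left of the first section had 10.7%. Intestine markers made up 2.71% of lane 1 and 3.54% of the left tissue, and contractile markers 0.534% and 2.26%. Lane 1 was not uniform in these markers. Its block 16 held 939791 UMIs, with 6.31% intestine and 1.24% contractile markers. In the other blocks they ran from 1.44% to 2.68% and from 0.281% to 0.670%. Lane 1, the left tissue and the gaps are 1 unit each, so no test was made.

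Members were not raised alike in lane 1. Of the 81 members with at least 100 section UMIs, 56 had more CPM in lane 1 and 25 fewer, with ratios from 0.541 to 10.2 (quartiles 0.901 and 2.27, median 1.34). Rps27rt, a retrotransposed copy of Rps27, had 2292 CPM in lane 1 and 224 in the sections. Rps27, a small subunit protein, had 4852 and 615, Rplp2 3405 and 547, and Rps6, the target of the S6 kinases, 4460 and 741. Near the other end were Rpl37a, a large subunit protein, at 417 and 756, and Rpl6, also of the large subunit, at 1242 and 1962. Without Rps27, Rps27rt and Rps6 the shares were 12.3% in lane 1 and 7.76% in the sections. Outside the members, ribosomal protein pseudogenes holding "-ps" had 7574 of 4077414 UMIs in lane 1. In the sections they had 10 to 99 UMIs per mouse. Eef1a1 made up 2.89% of lane 1, against means of 0.399% in control and 0.429% in AAA mice. How UMIs were divided between genes and their near-identical copies was not tested. In the gaps the ratio to the sections ran only from 0.680 to 1.34.

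**Figure D5:**
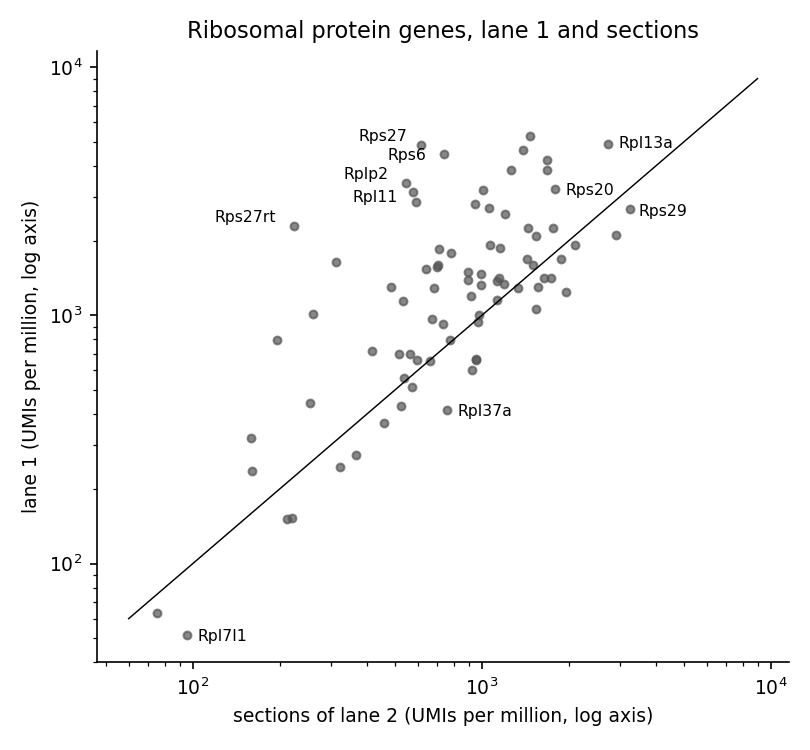
CPM of 81 ribosomal protein genes with at least 100 section UMIs, in the pooled lane 2 sections and in lane 1, both on log axes, with the line of equal values. Rps27rt (224 and 2292) lies farthest above the line and Rpl7l1 (95.6 and 51.7) farthest below it.

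Paralogs of core ribosomal proteins that are known from other tissues were rare in the aorta. Rpl3l, known from heart and skeletal muscle, had 1 UMI in all sections, Rpl10l, known from testis, 5, and Rpl39l, also a testis gene, 12. Rpl39l had 2628 UMIs in lane 1, or 645 CPM against 4.82 in the sections. Its coding sequence is 85.0% identical to that of Rpl39. Rps27l, Rpl22l1 and Rpl36al were more frequent, at 196, 159.9 and 159 CPM over all sections, and none was called (adjusted p = 0.808, 0.783 and 0.933). The coding sequences of Rps27 and Rps27rt are 100% identical over 252 bases, so their counts cannot be told apart with certainty. Rps27 stood between 549 and 710 CPM in control and at 629, 615 and 561 in AAA mice, with overlapping groups (log2 fold change -0.14 ± 0.13, adjusted p = 0.783).

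Other genes of the translation machinery gave 0 calls over all barcodes and 0 in dense hexagons, with edgeR and with DESeq2. At an unadjusted p under 0.05 in edgeR over all barcodes, 1 elongation gene was higher, 3 initiation genes were higher and 2 lower, 1 ribosome assembly gene was higher, and 0 of the other lists were either. Among all 6151 genes tested, 691 had such a value in either direction. Of the ribosomal proteins with other symbols, Rack1 (0.09) and Fau (0.03) had log2 fold changes near the median of the members over all barcodes. Of 9 elongation genes 7 were tested, 0 were called and 7 had a positive value over all barcodes, with a median of 0.07. Tpt1, another oligopyrimidine tract mRNA, had 0.21 ± 0.10 (adjusted p = 0.392), Eef1a1, which brings tRNAs to the ribosome, 0.10 and Eef2, which moves it along, 0.03. Of 33 initiation genes 32 were tested and 0 called, with Eif1, which guards the choice of start codon, at -0.31 ± 0.15 (adjusted p = 0.384). Of 24 ribosome assembly genes 16 were tested and 0 called, with Ncl at -0.02 and Npm1 at 0.08. Of 15 regulators 6 were tested and 0 called, with Larp1 at -0.01 ± 0.19 (adjusted p = 0.993). Of 78 mitochondrial ribosomal protein genes (Mrpl and Mrps) 53 were tested and 0 called, and 23 had a positive value, with a median of -0.01.

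For 12 of the 86 members the column of whole-gene UMIs, introns included, was below 0.5 of the exonic column. Rpl15 kept 7.73% of its exonic UMIs there and Rps6 10.5%, while Rps29 had 1.03 whole-gene UMIs per exonic UMI. In the whole-gene column ribosomal protein genes made up 2.77%, 2.37% and 2.98% of UMIs in control and 3.09%, 3.22% and 3.03% in AAA mice, again without overlap.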

How the data were processed

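One matrix of UMI counts for 32285 genes was analysed, holding 20 sections of 6 aortas. The authors made the deposited counts with STARsolo 2.7.5c on mm10, with exonic and whole-gene columns, not normalized. Their hexagon size (12 µm sides), minimum of 75 genes and removal of genes starting with mt or Gm (8551) were used here, but the hexagons were rebuilt within the placed sections. They numbered 4909 by exonic and 23372 by whole-gene UMIs, both far below the number the study states, so its set of hexagons is not the one analysed here. Sections were placed by a linear fit of 38 outline edges (residual SD 71.7 µm). The replicate was the mouse, and each is 1 animal. Sums per mouse went into the quasi-likelihood test of edgeR 4.0.16 after TMM scaling and filterByExpr, with p-values adjusted over all tested genes by Benjamini-Hochberg and a threshold of 0.05. DESeq2 1.42.0 was an alternative. CPM values used the total of genes not starting with mt or Gm. A hexagon took the class of the marker list with the most UMIs, at least 3 and ahead of all others, and a mouse needed 500 UMIs in a class to enter a mean. On simulated data, edgeR found 52% of changes of 1 and 96% of changes of 2 on the log2 scale over all barcodes (6151 genes), and 35% and 83% in dense hexagons (1214 genes). Named members were the 10 with the most UMIs, those past the threshold, the stalk genes, the ubiquitin fusion, the paralogs and the genes taken by name only. Others (Rpl36, Rps28, Rps6, Rps27, Rpl37a, Rpl15) were named after their values were seen, as were the windows printed. Members and lists were chosen with earlier results of these data known. The fit over dense hexagons and the fits without 1 section were added after the data were seen. Gene positions and lengths came from GENCODE M21 (GRCm38), where all 86 members matched. The array sample, a synthetic oligonucleotide library, was not used. Results of some genes are not reported here.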

Additional observations from a re-analysis of the deposited data

Results flagged for a closer look

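One section of control mouse 3 had a ribosomal protein share of 8.32%, farther from the other control sections than their spread allowed (Dixon's test at the 95% level, over the 10 control sections and over the 4 sections of this mouse). Its large subunit share of 4.31% and small subunit share of 4.01% stood apart from the control sections in the same way. Chance flags about 1 in 20 such groups. Its contractile markers (2.15%) and mitochondrial share (10.5%) lay within or near the range of the other sections of the mouse (2.10% to 2.19% and 10.5% to 11.4%), and its liver markers (1.54%) below theirs (1.80% to 1.94%). It held 65467 exonic UMIs outside mt and Gm genes, against 31509, 34426 and 38350 in the other sections of the mouse. It also adjoined an AAA section. The part of these values in its share was not tested.

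Lane 1 (13.5%) and the tissue left of the first section (10.7%) lie outside the comparisons between mice and had larger ribosomal protein shares than all 10 control sections. Neither is described by the labels.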

How the results depend on the processing

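Over all section barcodes, 0 members were called lower under every one of the 17 alternatives, and 0 were called higher under all but 3. The exceptions were 1 member without the low-count filter, 1 with whole-gene UMIs and 2 in hexagons with 75 or more genes only. Of all genes tested in these fits, 137 of 20948, 83 of 12787 and 24 of 1214 were called higher. Leaving out each mouse in turn gave 0 to 0 members called in either direction. With the pair number as a replicate block the count stayed at 0 over all barcodes and in contractile hexagons, and fell to 1 in dense hexagons. Aortas of 1 pair number were embedded together, but the correlations of their deviations were only 0.0278, 0.00779 and 0.0451, so the block was kept as an alternative. In contractile hexagons 1 of 48 members tested, Rpl32, was called higher at 2 or more marker UMIs, where 4 of 190 genes were. The count was 0 otherwise, 0 to 0 without each mouse in turn. The number of members that could be tested there changed with the mouse left out. Members with a positive value ran from 5 of 14 tested without control replicate 1 to 31 of 51 without control replicate 2. Of all genes tested in these 2 fits, 38.9% and 50.2% had a positive value.

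For dense hexagons, members called higher are given with the genes called higher among all tested in brackets. They numbered 1 with DESeq2 (19 of 1214) and 12 with no low-count filter (68 of 17962, all genes then having a median of 1.33). They numbered 21 with whole-gene UMIs (161 of 10091), 0 at 50 or more genes (40 of 2441) and 1 without the section that stood apart (20 of 1230). Leaving out each mouse in turn gave 1 to 6, with 6 without control replicate 1 (34 of 2116). Members called lower numbered 0 throughout, 0 to 0 without each mouse. Rpl32 kept its call under all alternatives but 50 or more genes. Rps20 lost it without any mouse other than control replicate 1 (adjusted p from 0.0513 to 0.126) and with the replicate block (0.0663).

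The difference in share between groups was 1.50 percentage points in dense hexagons, 1.67 there without the section that stood apart, 1.52 there without class markers, and 0.426 to 0.680 over all barcodes without each mouse in turn. Over all barcodes and in dense hexagons it kept its direction under each of these alternatives. Within contractile hexagons it was 0.540 percentage points and turned to -0.329 at 5 or more marker UMIs. In hexagons of no class it was 1.14, and 0.817 at 50 or more genes. With whole-gene UMIs it was 0.672, on lower mean shares of 2.09% in control and 2.76% in AAA mice. With exonic UMIs these mean shares were 7.11% and 8.26%, so the differences are not on 1 scale. Collagen hexagons exceeded contractile ones by 2.85 percentage points at 5 or more marker UMIs. With whole-gene UMIs they did so by 0.714, on mean shares of 3.52% and 2.81%. The cause of these changes was not tested. Control mice had as few as 9718 UMIs in dense hexagons, which limits what can be called there.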
